A study of Mus musculus with 6 samples.

Results

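The 10 genes described here make, break down, bind and respond to retinoic acid. They are the retinaldehyde dehydrogenases *Aldh1a1*, *Aldh1a2* and *Aldh1a3*, the retinoic acid hydroxylases *Cyp26a1* and *Cyp26b1*, the nuclear receptors *Rara*, *Rarb* and *Rarg*, and the cellular binding proteins *Crabp1* and *Crabp2*. They were taken by gene symbol, by a rule that uses none of their measured values, but the genes were chosen with earlier results of these data known. All 10 were among the 27506 genes of the count table and among the 19330 genes with enough counts to be tested. They were measured by RNA-seq in dental pulp of the mandibular first molar at P3.5 (3.5 days after birth), in 3 libraries from *Ror2fl/fl* control mice and 3 from *Osr2-Cre;Ror2fl/fl* mice, all on the C57BL/6 strain.

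Both groups carried the floxed *Ror2* allele, which encodes a receptor for Wnt ligands, and the mutant group also carried Cre recombinase driven by *Osr2*. According to the study, this Cre is active in the dental mesenchyme and alveolar bone and not in the dental epithelium, so the epithelium of the mutant molars kept *Ror2*. Whether each library came from 1 mouse or from pooled mice is not given in the sources used here, and p-values measure only the spread between these libraries. The labels name no batch, and their identifier series differs between the groups, so a batch and the genotype cannot be told apart. The controls themselves are labelled unevenly: WW stands in the label of control 1 and OW in those of controls 2 and 3, with no explanation in the sources used here.

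Retinoic acid is made from vitamin A in 2 oxidation steps, of which the ALDH1A enzymes carry out the second. CYP26 enzymes hydroxylate it for removal, so that its level in a tissue depends on where synthesis and breakdown take place. Inside the cell CRABP proteins carry retinoic acid, and in the nucleus it binds RAR receptors, which pair with RXR receptors on response elements in DNA. Several genes of the pathway, *Rarb* and *Cyp26a1* among them, are themselves known targets of these receptors. In the tooth, retinoic acid and its receptors are known for roles in patterning of the tooth row and in differentiation of odontoblasts and ameloblasts.

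Each library held between 56134770 and 62628940 estimated counts. Levels are given as CPM, the counts of a gene relative to the TMM-scaled total of its library, and levels of different genes are compared only as CPM per kilobase of exon. *Ror2* measured 38.2, 36.2 and 36.7 CPM in the controls and 27.9, 28.1 and 26.3 CPM in the mutants, a log2 fold change of −0.43 ± 0.08 (SE; adjusted p = 0.013). Unless another test is named, every adjusted p comes from the quasi-likelihood test of edgeR across all tested genes, adjusted by Benjamini and Hochberg's method. Each SE of a log2 fold change was calculated back from that fold change and the unadjusted p of the same test. It is thus not a separate measure of spread. All 3 mutants lay below all 3 controls, and *Ror2* passed in 18 of 21 alternatives, the exceptions being the replicate block and the fits without control 2 or control 3 (log2 fold changes of −0.43, −0.46 and −0.45). Enamel protein genes were abundant in these pulp libraries: the summed level of 7 dental epithelium markers (*Krt14*, *Krt5*, *Epcam*, *Cdh1*, *Amelx*, *Ambn* and *Enam*) was 171189 to 191568 CPM in the controls and 184788 to 255038 CPM in the mutants. The summed level of 6 dental mesenchyme markers was 315 to 377 CPM in the controls and 357 to 407 CPM in the mutants. Of these 6, however, 4 had a log2 fold change below 0, and their median was −0.21. The 1 that passed as higher was *Msx2*, with a mean of 168.2 CPM in the controls and 218.6 CPM in the mutants, a large part of the sum. In bulk tissue, fewer cells of a type and less RNA per cell cannot be told apart.

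Of the 10 retinoic acid genes, 1 passed the adjusted p threshold of 0.05, the receptor gene *Rara*, which was higher in the mutants, and none passed as lower. In the same test 3906 of 19330 genes passed (20.2%), of which 2003 were higher (10.4% of the tested genes) and 1903 lower (9.84%), so 1 of 10 was no larger a share than that of all tested genes. At an unadjusted p under 0.05 there were 3 of the 10, *Rara*, *Rarb* and *Cyp26a1*, against 38.3% of all tested genes. The groups did not overlap for *Rara* and *Rarg*, which were higher in every mutant library, nor for *Aldh1a1* and *Crabp1*, which were lower in every mutant library. Among all tested genes, 22.6% did not overlap with the mutants higher and 22.1% with the mutants lower. The log2 fold change was above 0 for 7 and below 0 for 3 of the genes, with a median of 0.21, against 0.0074 for all tested genes. With 3 libraries against 3, the smallest p that an exact two-sided permutation test of 1 gene can give is 0.1, and it was 0.1 for these 4 genes.

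**Figure D1:**
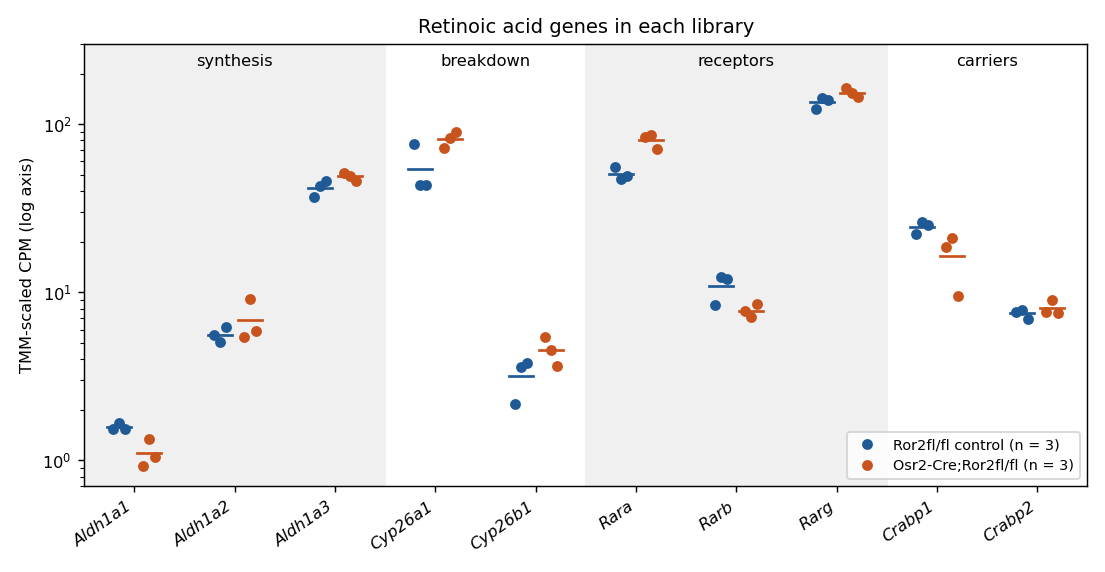
TMM-scaled CPM (log axis) of the 10 retinoic acid genes in each of the 3 control (blue) and 3 *Osr2-Cre;Ror2fl/fl* (orange) libraries, with the group mean as a line. The groups are apart for *Rara* and *Rarg* (mutants higher) and for *Aldh1a1* and *Crabp1* (mutants lower), 1 control library is high for *Cyp26a1* and 1 mutant library is low for *Crabp1*.

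Before the values, the DNA ahead of 2 of these genes is shown, because a retinoic acid response element lies there. Promoters of 8 of the 10 genes were found in the RefSeq sequences (build GRCm38.p6), each holding 250 bases before and 50 bases after a transcription start. Both strands were searched for 2 half-sites in the same direction, spaced by 5 or by 2 bases, a half-site being AGGTCA, or the form AGTTCA, or the form GGGTCA, or the form GGTTCA. A pair spaced by 5 bases was present in *Rarb* and *Cyp26a1* and in 31 of 27025 genes with a promoter (0.115%), or 32 of 32851 promoters (0.0974%). A pair spaced by 2 bases was present in 0 of the 8 genes, and in 88 of 32851 promoters (0.268%). A match describes the letters and does not show that a receptor binds there. The 250 bases before the start of *Rarb* (chr14:16575477-16575726, minus strand) and of *Cyp26a1* (chr19:37697558-37697807, plus strand) are printed 5′ to 3′ along the gene, with the half-sites in capitals. The start is the one RefSeq gives for each sequence, and it lies inside the annotated span of both genes. For *Rarb* it is an internal start. For *Cyp26a1* the printed bases end at 37697807, just past the annotated gene start at 37697798.
Rarb: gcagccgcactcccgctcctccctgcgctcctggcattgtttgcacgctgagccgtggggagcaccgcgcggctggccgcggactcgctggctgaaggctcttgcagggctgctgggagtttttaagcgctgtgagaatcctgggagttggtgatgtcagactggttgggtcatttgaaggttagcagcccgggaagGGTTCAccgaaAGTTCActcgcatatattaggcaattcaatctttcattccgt
Cyp26a1: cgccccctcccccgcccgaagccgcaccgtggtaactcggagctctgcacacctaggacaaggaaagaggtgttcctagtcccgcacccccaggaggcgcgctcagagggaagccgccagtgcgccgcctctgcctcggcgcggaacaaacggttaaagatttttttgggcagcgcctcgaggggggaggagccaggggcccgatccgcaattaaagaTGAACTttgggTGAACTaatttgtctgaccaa

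In *Rarb* the element runs along the gene, 53 to 37 bases before the start, and reads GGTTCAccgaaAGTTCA. In *Cyp26a1* it lies 32 to 16 bases before the start on the opposite strand, where it reads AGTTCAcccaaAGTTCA. The second half-site was the same in both. The fitted differences of the 2 genes between the genotypes had opposite signs, and neither passed the threshold, as described for each gene in turn.

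The *Aldh1a* genes, whose products oxidize retinaldehyde to retinoic acid, were led by *Aldh1a3*. This gene (ENSMUSG00000015134.15, chr7:66390890-66427517, minus strand, mm10) measured 36.9, 42.8 and 45.9 CPM in the controls and 51.5, 49.2 and 45.9 CPM in the mutants. Both groups met at the highest control and the lowest mutant, and the log2 fold change was 0.22 ± 0.11 (SE; adjusted p = 0.16). The gene shares between 24 and 26 stretches of 75 bases with each of *Cflar*, *Casc4* and *Gm26909*, 0.587% of its own stretches, and the counts of the 4 genes together gave −0.12 (adjusted p = 0.45). That sum averaged 147.3 CPM in the controls, most of it from the other genes, and so says little about *Aldh1a3* itself.

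*Aldh1a2*, the main retinoic acid synthase of the early embryo (ENSMUSG00000013584.5, chr9:71215789-71296243, plus strand), measured 5.54, 5.06 and 6.19 CPM in the controls and 5.40, 9.12 and 5.88 CPM in the mutants. Mutant 2 lay above the other libraries and the remaining mutants lay within the control range. The log2 fold change was 0.28 ± 0.21 (adjusted p = 0.36), and it was 0.02 when mutant 2 was left out.

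*Aldh1a1* (ENSMUSG00000053279.8, chr19:20492715-20643465, plus strand), which also oxidizes retinaldehyde, was the lowest of the 10 genes, with 54.8 to 98.9 estimated counts per library. It measured 1.54, 1.66 and 1.54 CPM in the controls and 0.930, 1.33 and 1.05 CPM in the mutants. Every mutant lay below every control, but the fitted log2 value of −0.52 ± 0.22 missed the threshold (adjusted p = 0.13), as it did in all 21 alternative analyses. Its paralog *Aldh1a7*, with which it shares 50 stretches of 75 bases, measured 0.606, 0.429 and 0.372 CPM in the controls and 0.220, 0.191 and 0.237 CPM in the mutants. The counts of both genes together gave −0.62 (adjusted p = 0.066), on the same side of the threshold.

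Per kilobase, *Aldh1a3* made up 76.4% ± 1.98 (SD, n = 3) of the 3 synthesis genes in the controls and 76.8% ± 5.10 in the mutants. The share of *Aldh1a2* was 20.9% ± 1.95 in the controls and 21.5% ± 4.89 in the mutants. These shares differed by less than the spread between libraries. The small share of *Aldh1a1* was 2.90%, 2.85% and 2.40% in the controls and 1.37%, 1.81% and 1.67% in the mutants, without overlap.

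**Figure D2:**
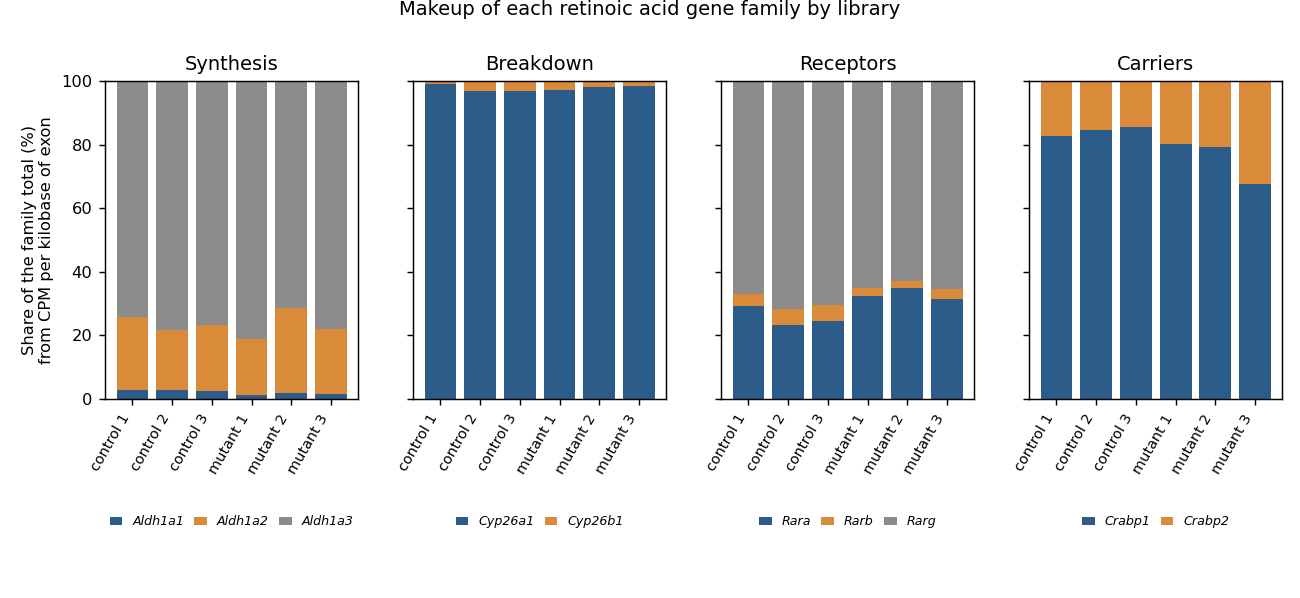
Share of each gene in the summed level (CPM per kilobase of exon) of its family, in percent, for each of the 3 control and 3 mutant libraries. *Aldh1a3*, *Cyp26a1*, *Rarg* and *Crabp1* take the largest share of their families in every library, and within the receptors the share of *Rara* is 23.3% to 29.4% in the controls and 31.4% to 34.8% in the mutants.

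Of the breakdown enzymes, *Cyp26a1* (ENSMUSG00000024987.6, chr19:37697798-37701536, plus strand) was by far the more abundant, at 96.9% to 99.0% of the pair per kilobase in all 6 libraries. It measured 76.6, 43.2 and 43.5 CPM in the controls and 72.3, 83.3 and 90.1 CPM in the mutants. Control 1 lay within the mutant range and the other controls well below it. The log2 fold change was 0.59 ± 0.22, with an unadjusted p of 0.028 in edgeR's quasi-likelihood test and an adjusted p of 0.089. Without control 1 it was 0.91 and passed (adjusted p = 0.0098), and it passed in 4 of 21 alternatives in all. With all 6 libraries it passed with DESeq2 (adjusted p = 0.047), edgeR's likelihood ratio test (0.046) and limma voom (0.013), so the call turned on the test as well as on control 1.

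Among the 7 dental epithelium markers, none passed the test, 5 had a log2 fold change above 0 and none was at 0 in every library. *Krt14*, a keratin of basal epithelium, measured 1178, 855 and 921 CPM in the controls and 1264, 1298 and 1341 CPM in the mutants. *Epcam*, an epithelial adhesion molecule, measured 33.1, 16.4 and 21.4 CPM in the controls and 31.9, 32.1 and 40.0 CPM in the mutants. For both genes control 1 was the highest control, as it was for *Cyp26a1*, and both were picked from the marker list after their values were seen. Control 1 was also the highest control for *Krt5* and *Cdh1*. For these the groups overlapped, with log2 fold changes of 0.21 and 0.07. In the enamel protein genes *Amelx*, *Ambn* and *Enam* control 1 was the lowest control. *Amelx* was higher and *Enam* lower in every mutant, and *Ambn* overlapped. The part of epithelial RNA in the *Cyp26a1* values was not tested.

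*Cyp26b1* (ENSMUSG00000063415.12, chr6:84571414-84593908, minus strand), which also hydroxylates retinoic acid, measured 2.17, 3.60 and 3.81 CPM in the controls and 5.40, 4.54 and 3.66 CPM in the mutants. The lowest mutant lay below the highest control. Its fitted log2 fold change was 0.51 ± 0.25 (adjusted p = 0.17), and it passed in 0 of 21 alternatives. Both breakdown genes had higher mutant means, and neither passed.

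The receptor genes held the one called difference. *Rara* (ENSMUSG00000037992.16, chr11:98927818-98974942, plus strand) encodes retinoic acid receptor alpha, the most broadly expressed of the family. It measured 55.4, 47.3 and 49.4 CPM in the controls and 84.2, 86.6 and 71.3 CPM in the mutants. The lowest mutant was well above the highest control. *Rara* rose 1.59-fold in the mutants, a log2 fold change of 0.67 ± 0.11 (SE; adjusted p = 0.0072), and 18 of 21 alternatives kept it past the threshold. The value was 0.61 without control 2 and 0.64 without control 3, each with an adjusted p of 0.052. An offset for GC content, fitted in each library, gave 0.43 (adjusted p = 0.025). The longest transcript of *Rara* is 59.2% GC.

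*Rarb* (ENSMUSG00000017491.9, chr14:16430839-16819156, minus strand) encodes receptor beta, which is known for its induction by retinoic acid through the element printed above. It measured 8.38, 12.3 and 12.0 CPM in the controls and 7.73, 7.09 and 8.47 CPM in the mutants. Control 1 lay just below mutant 3, while controls 2 and 3 were above all mutants. For *Rarb* the log2 fold change was −0.49 ± 0.17, with an unadjusted p of 0.019 in edgeR's quasi-likelihood test and an adjusted p of 0.072. On its own counts it passed in 3 alternatives: without control 1, where it was −0.66 (adjusted p = 0.027), with DESeq2 (−0.51, adjusted p = 0.038) and with limma voom (−0.58, adjusted p = 0.027).

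The exons of *Rarb* overlap those of *Top2b*, a DNA topoisomerase gene on the opposite strand, over 1793 of their 5265 bases (34.1%). Since the sources used here do not say whether strand was used in counting, reads in this overlap cannot be assigned to 1 gene. *Top2b* was far more abundant, at 208.6, 225.5 and 215.7 CPM in the controls and 173.6, 142.2 and 175.3 CPM in the mutants. *Top2b* fell, with a log2 fold change of −0.40 (adjusted p = 0.043), and 12 of 21 alternatives kept it past the threshold, whereas it was −0.20 with the GC offset and −0.0012 with offsets for GC content and length, both not past it. The counts of both genes together, nearly all from *Top2b*, gave −0.39 (adjusted p = 0.033). The part of *Top2b* reads in the *Rarb* values was not tested.

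*Rarg* (ENSMUSG00000001288.15, chr15:102234938-102257517, minus strand), which encodes receptor gamma, measured 122.9, 142.2 and 138.9 CPM in the controls and 164.0, 152.6 and 145.0 CPM in the mutants. The mutants lay above the controls by a narrow margin. Its log2 fold change was 0.19 ± 0.10 (adjusted p = 0.21), and with the GC offset it was −0.04 (adjusted p = 0.86), so its sign depended on that setting. The longest transcript of *Rarg* is 58.8% GC.

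The makeup of the receptor family differed between the groups in every library. *Rara* made up 29.4%, 23.3% and 24.5% of the receptor level per kilobase in the controls and 32.5%, 34.8% and 31.4% in the mutants. *Rarb* made up 3.69%, 5.03% and 4.94% in the controls and 2.48%, 2.36% and 3.10% in the mutants. *Rarg* remained the largest, at 66.9%, 71.7% and 70.6% in the controls and 65.0%, 62.8% and 65.5% in the mutants. For all 3 receptors the groups did not overlap in share, but the shares of a library add to a whole and are not separate results. The part of *Top2b* reads in the *Rarb* share was not tested. The summed receptor level was 43.1 to 46.6 CPM per kilobase in the controls and 52.0 to 59.2 in the mutants. The shares and this sum were taken without the GC offset, with which the log2 fold change was 0.43 for *Rara* and −0.04 for *Rarg*.

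The carriers *Crabp1* and *Crabp2* bind retinoic acid in the cytoplasm, where CRABP2 is known to hand it to receptors and CRABP1 is linked to its breakdown. *Crabp1* (ENSMUSG00000032291.8, chr9:54764748-54773110, plus strand) measured 22.3, 26.0 and 25.1 CPM in the controls and 18.6, 21.0 and 9.54 CPM in the mutants. All mutants were below all controls, and mutant 3 stood far below the rest. The log2 fold change was −0.58 ± 0.25 (adjusted p = 0.13), and −0.31 without mutant 3 (adjusted p = 0.089). It passed in 2 of 21 alternatives, at −0.72 with limma voom (adjusted p = 0.021) and at −0.97 with offsets for GC content and length (adjusted p = 0.032).

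*Crabp2* (ENSMUSG00000004885.5, chr3:87948666-87953376, plus strand) measured 7.66, 7.86 and 6.96 CPM in the controls and 7.61, 9.05 and 7.56 CPM in the mutants. The groups overlapped, and the log2 fold change was 0.11 ± 0.13 (adjusted p = 0.57), which turned to −0.10 with offsets for GC content and length. The share of *Crabp2* in the carrier pair per kilobase was 17.2%, 15.5% and 14.4% in the controls and 19.9%, 20.7% and 32.5% in the mutants. It was higher in every mutant library, most of all in mutant 3, in which *Crabp1* was lowest.

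Ranked by control level per kilobase, the 10 genes ran from *Rarg* (31.6 ± 2.42 CPM per kilobase, SD, n = 3) through *Crabp1* (30.5 ± 2.40), *Cyp26a1* (27.4 ± 9.69), *Rara* (11.6 ± 0.955), *Aldh1a3* (9.07 ± 0.998), *Crabp2* (5.67 ± 0.354), *Aldh1a2* (2.47 ± 0.249), *Rarb* (2.07 ± 0.417) and *Cyp26b1* (0.597 ± 0.166) to *Aldh1a1* (0.320 ± 0.0148). *Rarg*, *Crabp1* and *Cyp26a1* could not be ordered among themselves, since their libraries overlapped from one to the next, and the same held for *Aldh1a2* and *Rarb*. The remaining neighbors were apart in every control library. In the mutants *Cyp26a1* (41.3 ± 4.52) and *Rarg* (36.1 ± 2.25) led with overlapping libraries. *Crabp1* (20.4 ± 7.54) and *Rara* (18.5 ± 1.89) followed, overlapping in the mutants but not in the controls. With the length of the longest transcript in place of all exons, *Rarg* had the highest control mean (45.6), with 1 control library of *Cyp26a1* inside its range, and *Rarb* (3.51) came before *Aldh1a2* (2.47).

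**Figure D3:**
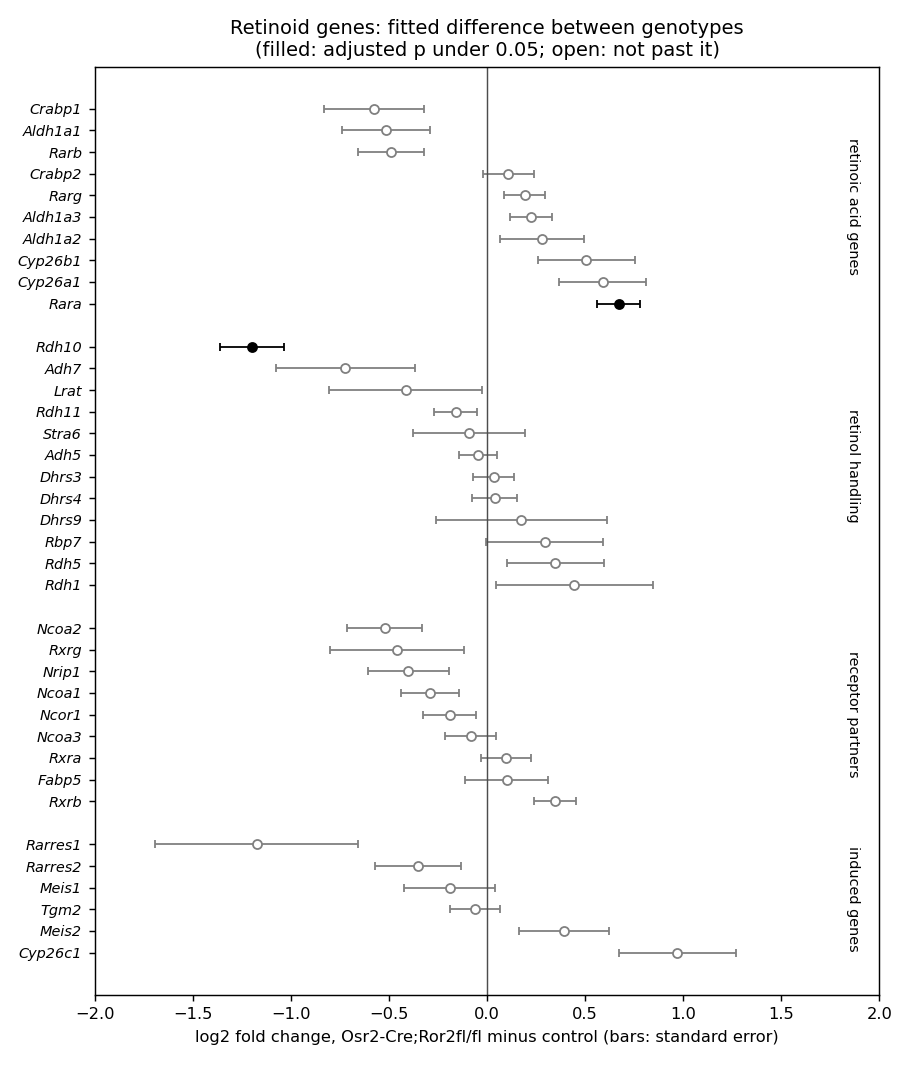
Log2 fold change between *Osr2-Cre;Ror2fl/fl* and control libraries from the edgeR fit, for the 10 retinoic acid genes and for genes from 3 other retinoid lists (a gene in more than 1 list is drawn once). Bars are standard errors calculated back from the fold change and the unadjusted p of the quasi-likelihood test. Filled points passed the adjusted p threshold, which were *Rara* at 0.67 and *Rdh10* at −1.20.

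One step upstream, a list of 16 genes of retinol uptake, storage and oxidation held 1 called gene. Of its members 13 were tested, of which 0 were called higher, 1 was called lower and 12 did not pass. Among all tested genes, 10.4% were called higher and 9.84% lower. The median log2 fold change of the list was 0.03. The called gene was *Rdh10*, the dehydrogenase that carries out the first oxidation, from retinol to retinaldehyde. It measured 92.4, 99.2 and 101.6 CPM in the controls and 53.7, 40.4 and 33.7 CPM in the mutants. Every mutant lay far below every control. *Rdh10* fell, with a log2 fold change of −1.20 ± 0.16 (adjusted p = 0.0032), and passed in 21 of 21 alternatives, between −1.40 and −1.06.

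In the controls *Rdh10* was also the most abundant of this list, at 23.5 CPM per kilobase, ahead of *Dhrs3* (15.6), which reduces retinaldehyde back to retinol, and *Adh5* (7.90). In the mutants *Rdh10* (10.23 CPM per kilobase) stood below *Dhrs3* (15.95). *Dhrs3* measured 43.3, 46.2 and 47.5 CPM in the controls and 43.3, 52.6 and 44.1 CPM in the mutants, with a log2 fold change of 0.03 ± 0.10 (adjusted p = 0.84). The 2 groups overlapped for *Dhrs3*. The untested genes were *Rbp4*, *Bco1* and *Adh1*, with at most 5, 11 and 6 estimated counts in any library.

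In a list of 10 receptor partners, carriers and co-regulators, none passed and the median log2 fold change was −0.14. In this list 2 genes had an unadjusted p under 0.05 in edgeR's test, against 38.3% of all tested genes. *Rxrb*, a receptor that pairs with the retinoic acid receptors, measured 39.5, 38.7 and 39.1 CPM in the controls and 44.6, 56.8 and 47.6 CPM in the mutants. Every mutant was higher, and the log2 fold change was 0.35 ± 0.11 (adjusted p = 0.055). *Ncoa2*, a coactivator, measured 104.3, 124.6 and 119.6 CPM in the controls and 87.5, 56.9 and 98.1 CPM in the mutants, all mutants being lower, with a log2 fold change of −0.52 ± 0.19 (adjusted p = 0.082). In the controls *Rxra* (30.1 CPM per kilobase), the most abundant RXR, led the list, and the corepressor *Ncor1* stood at 17.1.

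A list of 12 genes known to be induced by retinoic acid in other tissues had 9 tested members, 3 of which were also in the retinol list, and the other 3 were not analysed here. None of the 9 passed, 4 had a log2 fold change above 0 and 5 below, and the median was −0.06. An unadjusted p under 0.05 in edgeR's test was given by 2 of the 9, *Cyp26c1* among them, against 38.3% of all tested genes. *Cyp26c1*, a further retinoic acid hydroxylase, measured 1.38, 0.841 and 0.713 CPM in the controls and 1.66, 2.32 and 1.78 CPM in the mutants. All mutants were higher, with a log2 fold change of 0.97 ± 0.30 (adjusted p = 0.053). Per kilobase *Cyp26c1* stood at 0.56 CPM in the controls and 1.10 in the mutants, against 0.60 and 0.85 for *Cyp26b1*. It was not counted in the shares of the breakdown enzymes. *Tgm2*, a transglutaminase, measured 12.5 ± 1.58 CPM in the controls and 12.0 ± 0.861 CPM in the mutants (SD, n = 3).

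Markers of some other cell types differed between the genotypes. Among all tested genes, 10.4% passed as higher and 9.84% as lower. Of the summed levels given below, only that of skeletal muscle did not overlap between the groups. The summed level of the 5 skeletal muscle markers that could be tested was 8.13 to 31.0 CPM in the controls. It was 1.91 to 2.17 CPM in the mutants, and all 5 passed as lower. The summed level of 6 erythroid markers was 782 to 1320 CPM in the controls and 244 to 933 CPM in the mutants, and 2 of 6 passed as lower. Of 5 Schwann cell markers 2 passed as higher, with sums of 17.7 to 26.4 CPM in the controls and 24.5 to 28.0 CPM in the mutants, as did 1 of 6 dental mesenchyme markers. Of 5 macrophage and leukocyte markers 1 passed as lower, while none of 6 odontoblast, 5 endothelial or 4 bone markers passed. The summed odontoblast level ran from 20067 to 60039 CPM in the controls and from 17210 to 46770 CPM in the mutants, lowest in control 1 among the controls. None of these markers was at 0 in every library, and their part in the values of the retinoic acid genes was not tested.

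**Figure D4:**
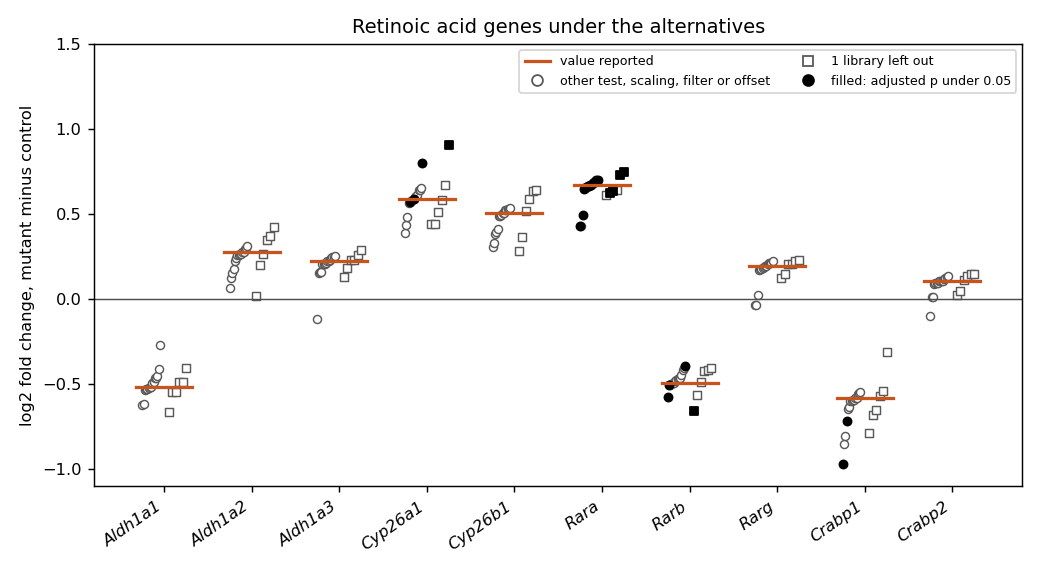
Log2 fold change (mutant minus control) of the 10 retinoic acid genes in the reported analysis (line) and in 21 alternatives, of which circles change the test, scaling, filter or offset and squares leave out 1 library. Filled symbols passed an adjusted p of 0.05: 18 for *Rara*, 4 each for *Cyp26a1* and *Rarb* (for *Rarb* 1 of them is the sum with *Top2b*), 2 for *Crabp1* and none for the rest.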

How the data were processed

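Dental pulp RNA from 3 control and 3 *Osr2-Cre;Ror2fl/fl* libraries was sequenced as single-end reads of 75 cycles. The authors deposited estimated counts per gene on mm10, of which 47.8% are whole. Their methods name TopHat 2, whereas the submitters' processing notes name STAR 2.6.1d and Partek; which made the table, and whether strand was used, is not given in the sources used here. A second deposited table holds a normalized signal for 22061 genes, equal to the count plus 1 times a factor per library, used only as an alternative. The count table has 6 further columns that the labels match to no sample, and they were not used.

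Groups were taken from the genotype labels. The planned test assumed whole counts, so the estimated counts were rounded. Libraries were scaled by TMM and genes filtered with filterByExpr (minimum count 10) in edgeR 4.0.16 (R 4.3.3), and the genotypes were compared with the quasi-likelihood test without a block, adjusting by Benjamini-Hochberg over all tested genes. The script was tested on simulated data. Between replicates of a group the chi-square per gene was 56.2 to 244, so no library was a copy. The biological coefficient of variation was 18.7%. Exact permutation tests were two-sided, on log2 CPM with a prior count of 2. Alternatives were DESeq2 1.42.0, edgeR's likelihood ratio test, voom with sample weights (limma 3.58.1), 3 other scalings, 2 other filters, limma-trend on the normalized signal (pseudocount 1 or 0.1), offsets for GC content and length, the label index as a replicate block, summing genes that share at least 20 stretches of 75 bases, and leaving out each library. Coordinates and lengths came from GENCODE M21, and promoter sequences from RefSeq.

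All 10 retinoic acid genes were named. From the other lists, genes past the threshold, at most the 5 with the smallest p and the 3 with the highest level could be named, with genes sharing sequence with a member. Some genes of these lists are counted in them but are not reported here by name. The genes and lists were chosen with earlier results of these data known.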

Additional observations from a re-analysis of the deposited data

How the results depend on the processing

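The number of retinoic acid genes past the threshold was 1 (*Rara*). It was 3 with DESeq2 (*Rara*, *Cyp26a1*, *Rarb*), 2 with the likelihood ratio test (*Rara*, *Cyp26a1*), 4 with limma voom (*Rara*, *Cyp26a1*, *Rarb*, *Crabp1*), 2 with offsets for GC content and length (*Rara*, *Crabp1*), 2 after summing genes that share sequence (*Rara*, and the sum of *Rarb* with *Top2b*, nearly all *Top2b*), and between 0 and 3 when 1 library was left out: 0 without control 2 or control 3 and 3 without control 1. Under the remaining scalings, filters and the normalized table it was 1, *Rara*. Of all tested genes 3906 passed, against 6341 with voom, 2013 with the replicate block, 1291 with the block and the GC offset, and 872 to 5001 with 1 library left out (872 without control 3, 910 without control 2, 2404 without mutant 1). The cause of these differences was not tested. Leaving out a library also reduces the samples, yet the number was 5001 without mutant 3.

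*Rara* gave 0.43 (adjusted p = 0.082) with the GC offset and replicate block together, no longer past the threshold, and 0.61 to 0.75 with 1 library left out. Signs turned for *Rarg* (−0.036 with the GC offset, −0.035 with it and the block) and *Crabp2* (−0.10 with the GC and length offsets). The sum of *Aldh1a3* with 3 other genes, which make up most of it, gave −0.12. Libraries with the same label index did not deviate together from their group means (correlations of −0.10, −0.08 and −0.0038). With 3 libraries per group, these values cannot settle whether the index pairs them. The authors' methods speak of 3 pairs of samples for RNA-seq, without saying which libraries form a pair. With the replicate block alone the count stayed at 1, *Rara* (adjusted p = 0.025). Longest-transcript lengths moved the level of 6 genes by more than the control SD. *Aldh1a1* had the lowest counts, 54.8 to 98.9 per library.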
